A study of Mus musculus with 10 samples.

Results

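The m6A peak lists of mouse liver at 1 week and at 2 weeks after birth, both within the suckling period, were compared with each other. The members were all 9070 peaks of the 1-week list and all 8765 peaks of the 2-week list, 17835 of the 32804 peaks in the 4 distinct lists of the series. A peak was called shared when its span and a span of the other list had at least 1 base in common on the same chromosome and strand, and all other peaks were called 1-week-only or 2-week-only. Genes were sorted in the same way, by Ensembl identifier, into those with a peak in both lists or in 1 list only.

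N6-methyladenosine (m6A) was profiled in liver of wild-type (WT) C57BL/6J mice, a common inbred strain. RNA fragments that an m6A antibody had bound were sequenced (immunoprecipitation, IP), and so was the unselected RNA (input). The labels give 1 IP and 1 input sample at each of 5 ages, so 4 of the 10 samples stand behind the comparison, and the mice differed in no allele or treatment named there. The peak list of each age gives places where IP reads exceeded input reads, with a fold of IP over input, a p-value and a false discovery rate (FDR). Where only 1 fold is given for a gene in a list, it is that of its peak with the lowest p-value there. In 880 of the 4113 genes with a peak in both lists (21.4%) these peaks did not overlap each other, so where a gene is given a fold for each list, the folds are those of overlapping peaks unless different places are named. The table deposited for 4 weeks was a copy of that for 2 weeks, and the list is called the 2-week list here. By the study's own gene numbers, the number of genes in it fits the earlier of these ages and not the later. The study gives higher peak numbers than the deposited lists hold for both ages compared, with the later age the higher, although the gene numbers are close. How its peaks were counted was not found in the sources used here, so the shares below describe the deposited lists.

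Only 1 list was available per age, and how the RNA of individual animals was combined in it could not be learned from the sources used here. There was no spread between replicates, no test between ages could be made, and every difference below lacks a replicate check. Shares have 95% Wilson intervals, which cover counting error only. Read totals are not given, so the depth behind each list is unknown and folds of the 2 lists are not on a shared scale. A gene without a peak was not called, which does not mean that its mRNA carried no m6A. Expression was not analysed here, so in this bulk tissue more methylation per mRNA, more mRNA per cell and more cells of the type that makes it cannot be told apart.

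m6A is written on nascent mRNA by a complex around the methyltransferase Mettl3, can be removed by the demethylases Fto and Alkbh5, and is bound by YTH-domain proteins that steer decay, translation and export of the mRNA. It is best known from long internal exons and from the region around the stop codon, mostly at an adenosine within GGAC or a similar word. The suckling liver lives on fat-rich milk: it oxidises fatty acids, makes ketone bodies and new glucose, and builds up the adult programmes for bile acids, urea and foreign compounds. Blood formation, a main task of the fetal liver, leaves the organ in the same period.

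The sequences below show the middle of some strong peaks that the lists did and did not share. Every middle printed held a GGAC, but other middles of strong peaks held none. Among these were Apoa1, Mtus1, Mup20, Arhgap5 and Sptbn1, Zfp292 and Ube2o at both ages, and Brwd1 at 2 weeks. The printed stretches thus do not show how often strong peaks held the word. They were read from the RefSeq sequence of GRCm38, which is mm10, on the strand of the gene, with GGAC in capitals. The coding peaks were wider than the stretches shown, so only their middle 120 bases are printed. Ncoa2, Sec62 and Lrrfip1 had peaks in the 1-week list only, Hrg had peaks in the 2-week list only, the Kmt2b site was called at 1 week only and the Foxn3 site at 2 weeks only in genes of both lists, and Brwd1 and Zfp609 had strong shared peaks.
Ncoa2, 1 week, exon 11, chr1:13174453-13174572, minus strand: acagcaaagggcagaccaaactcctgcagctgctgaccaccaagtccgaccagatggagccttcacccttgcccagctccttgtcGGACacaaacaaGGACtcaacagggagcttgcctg
Sec62, 1 week, exon 8, chr3:30818732-30818851, plus strand: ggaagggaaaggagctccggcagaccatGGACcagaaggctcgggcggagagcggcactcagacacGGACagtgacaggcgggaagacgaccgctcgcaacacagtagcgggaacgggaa
Lrrfip1, 1 week, exon 8, chr1:91115384-91115503, plus strand: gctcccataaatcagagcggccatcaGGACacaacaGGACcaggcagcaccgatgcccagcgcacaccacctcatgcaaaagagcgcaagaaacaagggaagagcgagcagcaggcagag
Hrg, 2 weeks, exon 7, chr16:22961103-22961222, plus strand: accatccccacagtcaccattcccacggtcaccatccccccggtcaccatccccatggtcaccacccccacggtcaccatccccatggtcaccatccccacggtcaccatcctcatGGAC
Kmt2b, 1 week, exon 3, chr7:30586546-30586665, minus strand: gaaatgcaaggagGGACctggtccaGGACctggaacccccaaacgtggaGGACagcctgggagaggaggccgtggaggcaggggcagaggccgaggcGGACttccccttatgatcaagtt
Foxn3, 2 weeks, exon 2, chr12:99388592-99388711, minus strand: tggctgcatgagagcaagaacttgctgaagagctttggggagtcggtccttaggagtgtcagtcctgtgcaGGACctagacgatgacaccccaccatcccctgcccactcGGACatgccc
Brwd1, 1 week, exon 41, chr16:96002471-96002590, minus strand: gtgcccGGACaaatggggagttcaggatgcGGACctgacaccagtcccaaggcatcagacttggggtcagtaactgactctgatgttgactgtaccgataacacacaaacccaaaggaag
Zfp609, 1 week, exon 5, chr9:65702972-65703091, minus strand: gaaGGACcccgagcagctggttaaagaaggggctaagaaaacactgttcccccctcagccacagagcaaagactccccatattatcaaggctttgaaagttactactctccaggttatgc
Kmt2b had 4 GGAC words in this stretch, Hrg and Zfp609 had 1, and each of the others had 2.

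Stretches of 29 bases around a GGAC of the peak are shown for some peaks in 3′ untranslated regions (UTRs). The same holds for some genes whose peak middle held no GGAC. Hnf4a, Agpat2 and Sox5 are 1-week-only sites, Scd1, Klf15, Ghr, Pik3r1, Rora and Vegfa are 2-week-only sites, and Ppara has a shared and a 2-week-only site. The Thrb stretch at 2 weeks crosses the end of the coding sequence.
Hnf4a, 1 week, 3′ UTR, chr2:163570319-163570347, plus strand: cttccactgcctGGACtcctctcaagttg
Agpat2, 1 week, 3′ UTR, chr2:26593400-26593428, minus strand: gccttagatccaGGACcctatgtaacttc
Sox5, 1 week, 3′ UTR, chr6:143833219-143833247, minus strand: gtggtgagccgaGGACttgaagaagccct
Scd1, 2 weeks, 3′ UTR, chr19:44394867-44394895, minus strand: atcagctcaggaGGACactctgggagagt
Klf15, 2 weeks, coding, chr6:90466924-90466952, plus strand: gaacggtagcagGGACctggagacctgta
Ghr, 2 weeks, coding, chr15:3319957-3319985, minus strand: ctttaaccaagaGGACatttacatcacca
Pik3r1, 2 weeks, 3′ UTR, chr13:101684514-101684542, minus strand: ctctccgtgcagGGACaaagaggccttta
Rora, 2 weeks, 3′ UTR, chr9:69379216-69379244, plus strand: gcctacagatatGGACcctttttctgtct
Vegfa, 2 weeks, 3′ UTR, chr17:46018189-46018217, minus strand: cctgagtcaagaGGACagagagacagatg
Ppara, shared site, 1-week peak, 3′ UTR, chr15:85802501-85802529, plus strand: ctcagacctcatGGACtcccggcacccac
Ppara, 2-week-only site, 3′ UTR, chr15:85801283-85801311, plus strand: gccactgttcagGGACctccgaggcctgc
Thrb, 2 weeks, end of coding sequence, chr14:18033648-18033676, plus strand: agaagtatttgaGGACtaaatttactgga

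Most peaks of each list were found in the other. Of the 9070 peaks at 1 week, 5694 overlapped a 2-week peak (62.8%, interval 61.8 to 63.8%), and of the 8765 peaks at 2 weeks, 5653 overlapped a 1-week peak (64.5%, 63.5 to 65.5%). The 3376 1-week-only peaks lay in 2709 genes and the 3112 2-week-only peaks in 2632 genes. At the level of genes, 4113 had a peak in both lists, which was 74.4% of the 5527 genes at 1 week and 74.5% of the 5521 at 2 weeks. A further 1414 genes had a peak in the 1-week list only and 1408 in the 2-week list only, close to equal numbers. Among the 6935 genes with a peak in either list, these groups made up 59.3%, 20.4% and 20.3%, which are the background shares for every gene group below. About as many unshared peaks lay in genes with a peak elsewhere as in genes without: 51.4% of the 1-week-only peaks (49.7 to 53.1%) and 49.0% of the 2-week-only peaks (47.2 to 50.7%) were in a gene that the other list also held. Matches were seldom marginal, since fewer than 30 bases were in common for 46 peaks at 1 week and 43 at 2 weeks. Just outside the rule, 204 1-week-only and 169 2-week-only peaks lay within 100 bases of a peak of the other list.

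Shared peaks were stronger and wider than unshared ones. A wide span meets another span more easily when 1 base is enough, so the matching rule by itself favours wide peaks. At 1 week their median fold was 31.3 (quartiles 14.2 to 73.6) and their median log10 p was -17.1, against a fold of 12.4 (8.72 to 21.1) and a log10 p of -3.97 for 1-week-only peaks. At 2 weeks the shared peaks had a median fold of 26.3 and a log10 p of -12.7, and the 2-week-only peaks had 11.1 (7.61 to 18.2) and -3.92. Shared peaks were 300 bases wide in the median at 1 week and 299 at 2 weeks, and both kinds of unshared peak were 181 bases wide. An FDR above 0.05 was carried by 0.843% of the shared 1-week peaks, 5.84% of the 1-week-only and 7.81% of the 2-week-only peaks. Weak peaks thus made up much of each unshared set, and a peak called at 1 age and missed at the other by a small margin is counted here as unshared.

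Unshared peaks lay in the coding sequence less often than shared ones, 2-week-only peaks least. By the deposited class, 49.7% of the shared 1-week peaks were coding (48.4 to 51.0%), against 42.3% of the 1-week-only peaks (40.6 to 44.0%) and 35.4% of the 2-week-only peaks (33.7 to 37.0%). The 3′ UTR and stop codon classes went the other way, with 32.9% (31.7 to 34.1%), 36.6% (35.0 to 38.3%) and 39.8% (38.1 to 41.5%). Peaks of the 5′ UTR class were few but had the same order, 2.88%, 5.01% and 6.88%. Among 1-week peaks of like strength the coding shares were closer. With a log10 p between -3 and -6 they were 48.5% of 851 shared peaks (45.2 to 51.9%) and 43.4% of 1112 1-week-only peaks (40.5 to 46.3%), and between -6 and -12 they were 46.4% of 1015 (43.4 to 49.5%) and 44.2% of 570 (40.2 to 48.3%). The intervals overlapped in both of these bands and parted only between -12 and -30, at 49.1% of 1312 (46.4 to 51.8%) and 38.1% of 320 (33.0 to 43.6%). At 2 weeks they lay apart in each band. Coding peaks made up 44.4% of 1034 shared peaks and 33.1% of 965 2-week-only peaks (30.2 to 36.1%) in the weakest band, 47.9% of 1029 and 35.1% of 485 (30.9 to 39.4%) in the next, and 50.9% of 1252 and 35.4% of 314 (30.3 to 40.8%) in the strongest. The difference in the 3′ UTR and stop codon classes was nearly gone in the weakest band, with 32.9% of shared 1-week and 34.5% of 1-week-only peaks, and 39.1% of shared 2-week and 40.2% of 2-week-only peaks. In the middle band these shares were 34.7% and 35.6% at 1 week and 33.3% and 40.4% at 2 weeks, and in the strongest 33.1% and 44.1%, and 32.6% and 43.3%.

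Around the stop codon the 3 sets of peaks were much alike. On the longest coding transcript of the gene, 25.1% of the shared 1-week peaks had their middle within 200 nucleotides (nt) of the last coding base, as did 24.9% of the 1-week-only peaks (23.4 to 26.5%) and 23.4% of the 2-week-only peaks (21.8 to 25.1%). Middles spread evenly along the same transcripts would put 10.5%, 10.7% and 12.1% there, so the observed shares were 2.40, 2.33 and 1.94 times these. The sets parted away from the stop codon. The plot of peak positions shows more shared than 2-week-only peaks from 100 to 500 nt upstream and the reverse from 500 to 800 nt downstream, where each 100 nt held 2.08 to 2.58% of the 2-week-only peaks and 0.93 to 1.60% of the shared ones. The median middle lay at -228.5 nt for shared 1-week peaks, -117 nt for 1-week-only peaks and -3.5 nt for 2-week-only peaks.

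**Figure D1:**
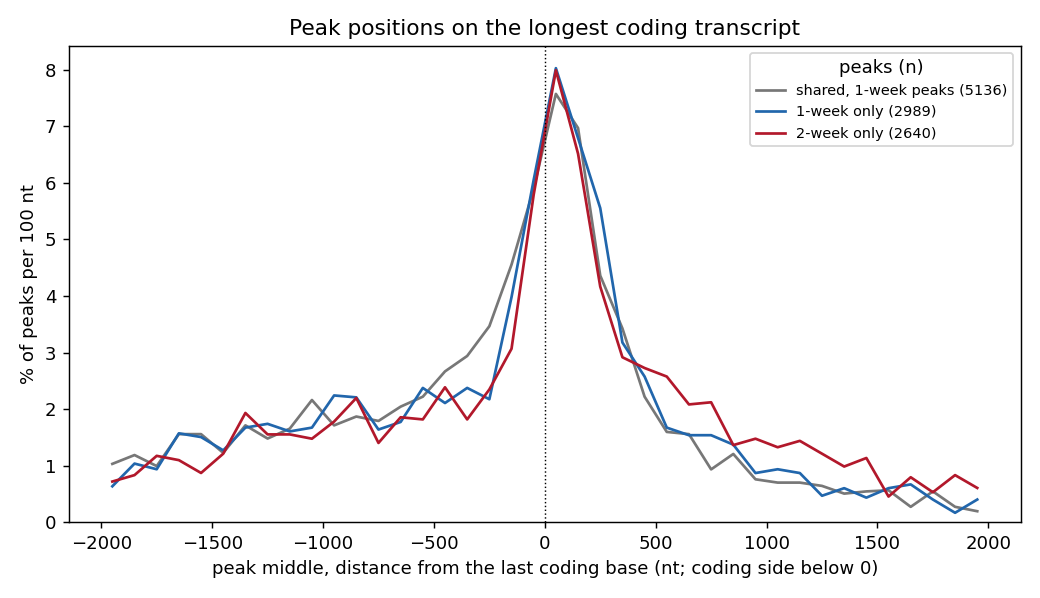
Share of peaks per 100 nt (y axis, %) by the distance of the peak middle from the last coding base (x axis, nt, coding side below 0) for shared 1-week peaks (grey), 1-week-only peaks (blue) and 2-week-only peaks (red). All 3 lines are highest just after the stop codon, at 7.57 to 8.03% per 100 nt.

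The word GGAC was in 80.5% of the shared 1-week peaks (79.5 to 81.5%), 65.2% of the 1-week-only peaks (63.6 to 66.8%) and 62.0% of the 2-week-only peaks (60.3 to 63.7%), read on the strand of the gene along the exons. Shared peaks are wider, so windows of the same length beside the peak on the same transcript were read too. There the share was 64.5%, 52.2% and 51.4%, against 80.3%, 62.9% and 59.0% in the peaks that had such a window. Per 1000 bases, GGAC occurred 5.87, 5.70 and 5.22 times in the peaks and 3.85, 4.01 and 4.07 times beside them. The longer word GGACT was in 43.0%, 29.1% and 25.9% of the peaks. CAGG, a word of the same bases with no known part in m6A, differed less between peaks and the windows beside them: 82.3% against 80.5% for shared 1-week peaks, 70.5% against 68.0% for 1-week-only and 65.0% against 65.5% for 2-week-only peaks.

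Peaks and genes of the 1-week list only were found in the day 1 list more often than those of the 2-week list only. A day 1 peak was overlapped by 84.1% of the shared 1-week peaks (83.1 to 85.0%), 51.7% of the 1-week-only peaks (49.97 to 53.3%) and 37.6% of the 2-week-only peaks (35.9 to 39.3%). The gap between 1-week-only and 2-week-only peaks was present at each strength and widened with it. Among peaks with a log10 p between -3 and -6 the shares were 53.8% (50.8 to 56.7%) and 39.6% (36.6 to 42.7%), between -6 and -12 they were 60.5% (56.5 to 64.5%) and 42.3% (37.9 to 46.7%), and between -12 and -30 they were 68.4% (63.2 to 73.3%) and 33.8% (28.8 to 39.2%). With the 8-week list, 1-week-only and 2-week-only peaks overlapped alike, in 11.8% (10.7 to 12.9%) and 12.3% (11.2 to 13.5%), and shared 1-week peaks in 39.7%. Of the genes in the 1-week list only, 59.8% were in the day 1 list and 20.3% in the 8-week list. Of those in the 2-week list only, 43.1% and 20.7% were, and 47.0% were in no other list (44.4 to 49.6%), against 32.5% for the 1-week list only (30.1 to 34.9%).

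**Figure D2:**
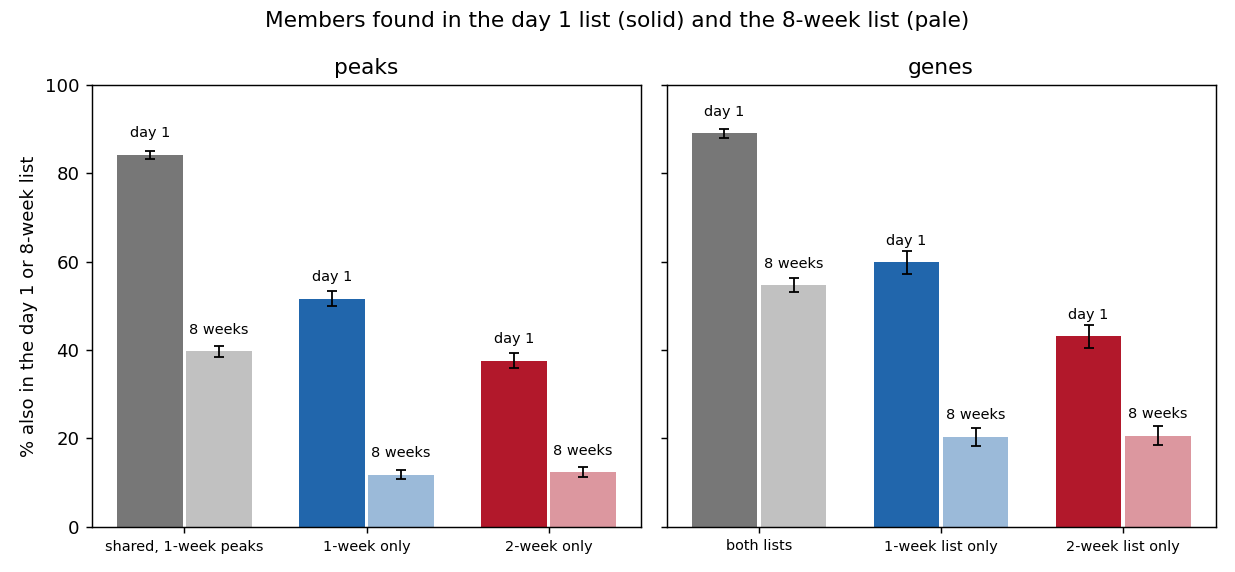
Share (y axis, %) of peaks (left) and genes (right) that also occur in the day 1 list (solid bars) or the 8-week list (pale bars), for members shared by both lists (grey), of the 1-week list only (blue) and of the 2-week list only (red). Bars with 95% Wilson intervals start at 0: the day 1 share is 51.7% for 1-week-only and 37.6% for 2-week-only peaks, while the 8-week shares are 11.8% and 12.3%.

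Genes with a peak in both lists had the longest mRNAs and those of the 2-week list only the shortest. The median transcript length was 4103 nt for both lists, 3500 nt for the 1-week list only and 2932 nt for the 2-week list only, each over the longest coding transcript. Median coding lengths were 1698, 1476 and 1308 nt, and median 3′ UTR lengths 1551, 1339 and 1101 nt. The longest exon measured 2147, 1789 and 1399 nt in the median, while the number of exons was 9 in each group. The best peak of a gene in both lists had a median log10 p of -27.1, against -4.18 and -4.21 in the genes of 1 list only. A gene had 1.64 peaks on average in the 1-week list and 1.59 in the 2-week list. Of the genes of both lists, 918 had more peaks at 1 week, 801 more at 2 weeks and 2394 as many.

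Among the genes with a peak in the 1-week list only, the 10 with the lowest deposited p-values were chosen for a closer look, so their folds are a description. Ncoa2, a coactivator of nuclear receptors, had a fold of 678 over exon 11 at chr1:13174107-13174916, and its other peak in the same exon had a fold of 16.7. Sec62, part of the channel that takes proteins into the endoplasmic reticulum, had a fold of 180 in exon 8. Agpat2, which makes phosphatidic acid for triglycerides, had a 3′ UTR peak of fold 114 at 233 nt after the stop codon. Angptl8, which tunes lipoprotein lipase, had a fold of 54.0 at 114 nt after it, and Apoa1, the main protein of high-density lipoprotein, had a coding peak with a log10 p of -130000 and a fold of only 10. Mtus1, a microtubule-associated protein, had folds of 75.2 in exon 2 and 531 in the 3′ UTR. The others were Lrrfip1 (69.9), Aff4 (64.3), a scaffold of the super elongation complex, and the plasma proteins Serpina3k (42.7) and Azgp1 (11.3). Serpina3k has close copies on the same chromosome, so its gene is uncertain. Of the 10 genes, 8 had a peak in the 8-week list and 5 had one both there and at day 1, so that the 2-week list alone lacked them. Over all genes of the 1-week list only, 20.3% were in the 8-week list. Agpat2 had a fold of 35.6 at day 1 and 21.8 at 8 weeks at the same place, Azgp1 20.5 and 8.35, and Apoa1 6.58 and 10.2. Ncoa2 and Aff4 were absent at day 1 and had folds of 164 and 24 at 8 weeks.

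The 10 genes chosen in the same way from the 2-week list had varied roles. Scd1, the desaturase that makes monounsaturated fatty acids, had 3 peaks in its long 3′ UTR, with folds of 1790, 178 and 17.6, and none in any other list. Pik3r1, the regulatory subunit of the insulin-activated lipid kinase, had a fold of 279 at chr13:101683982-101685032, centred 376 nt after the stop codon, and of 38.3 there at 8 weeks. Ghr, the growth hormone receptor, had a fold of 43.3 in exon 11 and was also called at day 1 (107) and at 8 weeks (26.1), though not at 1 week. Klf15, a transcription factor of fasting metabolism, had a fold of 72.0 in exon 3 and of 49.5 at 8 weeks. Cps1, the entry enzyme of the urea cycle, had a fold of 27.9 in its 3′ UTR and was in no other list. The rest were Hrg (14.5) and Plg (6.47), both made for plasma, Car3 (26.7), a carbonic anhydrase, Mup20 (178), a major urinary protein, and the mitochondrial mt-Co1 (1.76). Mup genes are near-identical copies, so reads of Mup20 may come from another member. Of these 10 genes, 6 were in neither the day 1 nor the 8-week list, as were 47.0% of all genes of the 2-week list only.

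In genes with a peak in both lists, the strongest unshared peaks often lay next to shared ones on the same mRNA. Setd2, a histone methyltransferase, had 3 shared coding peaks and a further coding peak of fold 185 at 1 week, where the nearest peak of the 2-week list lay upstream and had a fold of 10.4. Glyctk, glycerate kinase, had a peak of fold 111 reaching over the stop codon at 1 week and shared only its weaker peak at the start of the coding sequence. Other chromatin regulators with such 1-week sites were Kmt2b (144), Asxl1 (92.3) and Kat6a (26.4). Day 1 peaks covered the Kmt2b site, with a fold of 75.7, and not the Asxl1 or Kat6a sites. At 2 weeks, Arhgap5, which switches off small GTPases, had a coding peak of fold 1080 and shared 3 weaker peaks, whose folds at 2 weeks were 8.59, 13.1 and 5.64. Foxn3, a forkhead repressor, had a peak of fold 629 over the start of its coding sequence beside 4 shared peaks. Sptbn1, a spectrin, had a peak of fold 49.5 in exon 13.

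Some genes were called in both lists with no peak in common, which held for 298 of the 4113. Sox5 had a fold of 433 at the stop codon at 1 week and a fold of 14.1 far upstream in the coding sequence at 2 weeks. The stop codon site was also in the day 1 list (406) and the 8-week list (98.7). Vegfa, the endothelial growth factor, had a fold of 33.2 in exon 1 at 1 week and of 70.7 over the 3′ UTR, from 11 to 1149 nt after the stop codon, at 2 weeks. Other genes had a shared peak and a further site at 2 weeks. G6pc, which releases free glucose, had a shared 3′ UTR peak of fold 5.71 at 1 week and 4.03 at 2 weeks and had further peaks of fold 11.1 around the stop codon and 9.45 at the start codon at 2 weeks. Igf2, the fetal growth factor, had a 2-week-only peak of fold 75 in the distal 3′ UTR, and the same stretch was counted for the overlapping gene AC013548.1, so its gene is uncertain. Ugt2b1 had a 2-week-only 3′ UTR peak of fold 24.2, and this family too has close copies. The map of 8 mRNAs draws the sites of Sox5, Vegfa, G6pc, Setd2, Glyctk, Foxn3, Ppara and Thrb to scale.

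**Figure D3:**
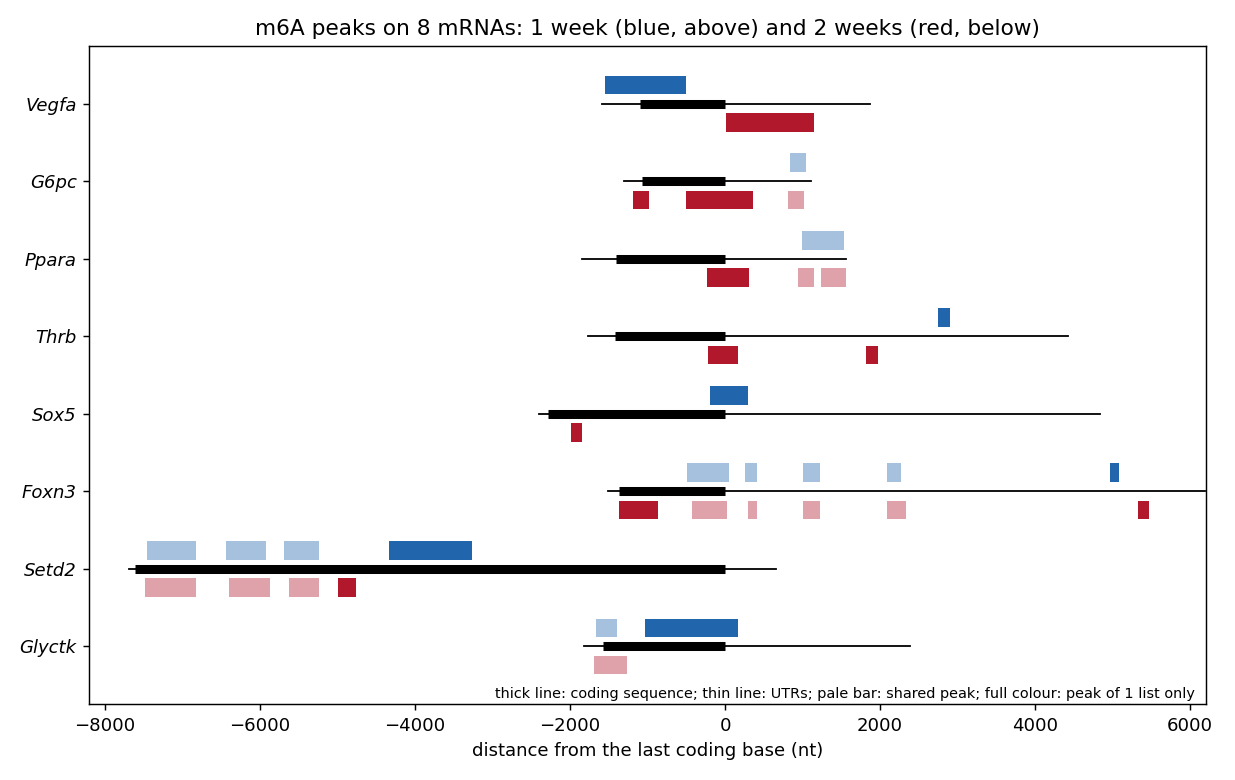
Peaks at 1 week (blue, above each line) and 2 weeks (red, below) on 8 mRNAs, by distance from the last coding base (x axis, nt), where pale bars are shared peaks, full colour marks peaks of 1 list only, and the thick line is the coding sequence. Vegfa, Thrb and Sox5 have no shared peak, while Setd2 shares 3 and Foxn3 shares 4.

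Of the shared peaks, 4740 pairs matched 1 to 1, and their folds were compared. The median difference in log2 fold, 2 weeks minus 1 week, was -0.21 (quartiles -1.16 and 0.72), with 43.9% of pairs higher at 2 weeks. Since the folds share no scale, single pairs are read against this median. Within 2-fold of it lay 52.9% of pairs, and 16.4% lay more than 4-fold from it. Across the 4740 pairs the log2 folds had a Pearson r of 0.60, which describes peaks that share libraries and mRNA levels and is no test. In 96.3% of pairs the deposited class was the same, and the peak middle differed by 30 bases in the median.

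The strongest shared peaks were mostly coding. Brwd1, a bromodomain protein, had folds of 1240 at 1 week and 1550 at 2 weeks, and Bcl9l, a Wnt coactivator, had 625 and 1330. Zfp292 had 2770 and 762, Zfp609 had 916 and 684, and Apc, which holds β-catenin in check, had 633 and 787. Other pairs differed widely. Among pairs with an FDR of at most 0.001 in both lists, the largest difference toward 2 weeks was that of P4hb, a protein disulfide isomerase, with 1.30 and 95.4, but its peaks covered 119 and 385 exonic bases. Ftl1, the ferritin light chain, followed with 2.84 and 119, though its peaks covered 209 and 358 bases and it has near-identical copies elsewhere, and Rheb, which activates the growth kinase mTOR, had 2.27 and 39.1 over the same span of its 5′ UTR. In Agxt2, an aminotransferase of liver and kidney, the folds were 2.54 and 56.8, over 300 and 628 bases. Toward 1 week, Trip11, a Golgi protein, had 938 and 6.73, but its peaks were 1168 and 180 bases wide and met only at their ends. Eif2ak1, the kinase that senses haem, had 771 and 26.3, Plagl1, an imprinted regulator of fetal growth, 420 and 16.4, and Klb, the coreceptor for fibroblast growth factors in bile acid control, 437 and 22.2, over 1258 and 330 exonic bases. Plagl1 and Klb each had another site that went the other way, with 11.2 and 68.5 in Plagl1 and 21.1 and 118 in Klb. The plot of matched folds shows the pairs with the largest differences far from the diagonal and the 51 pairs of liver transcription factors spread among the rest.

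**Figure D4:**
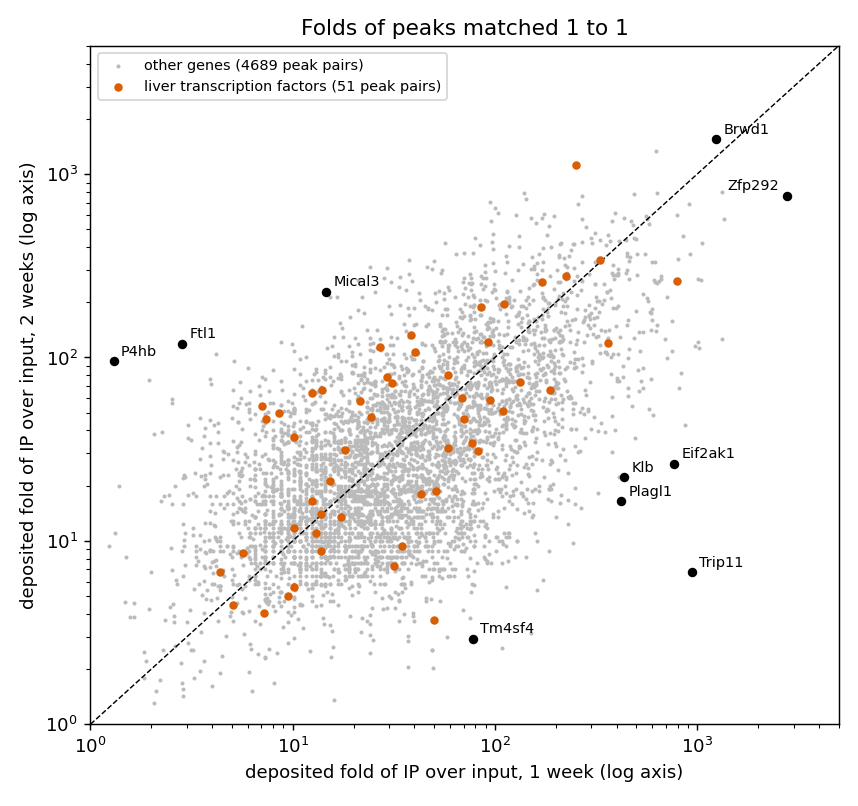
Deposited fold of IP over input at 1 week (x axis, log scale) and 2 weeks (y axis, log scale) for 4740 peak pairs matched 1 to 1, with 51 pairs of liver transcription factors in orange and 10 named genes in black. The dashed line marks equal folds; P4hb (1.30 and 95.4) and Trip11 (938 and 6.73) lie farthest from it among the named genes.

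Of 22 listed writers, erasers and readers of m6A, 13 had a peak. Of these, 7 were in both lists (53.8%, beside 59.3% over all genes). At 1 week only was 1 (7.69%, beside 20.4%), and at 2 weeks only were 5 (38.5%, beside 20.3%). The writer subunits Virma (folds of 78.5 at 1 week and 46.3 at 2 weeks), Rbm15 (308 and 165), Rbm15b (461 and 200) and Zc3h13 (48.0 and 33.8) were called in both lists. So were the eraser Fto (35.6 and 46.8) and the readers Ythdf1 (47.3 and 53.3) and Ythdc1 (360 and 209). The 2-week list alone held the writer subunit Wtap (14.1), the eraser Alkbh5 (18.7), the reader Ythdf2 (20.5) and the RNA-binding proteins Hnrnpa2b1 (16.4) and Hnrnpc (9.37). The 1-week list alone held Cbll1 (27.6). The median fold of the 5 genes found at 2 weeks only was 16.4, against 11.1 over all 1408 such genes. Wtap, Alkbh5, Hnrnpa2b1 and Cbll1 also had a peak at day 1. Neither list held a peak in Mettl3 or Mettl14.

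Liver transcription factors were mostly called at both ages: of 57 listed, 50 had a peak, 40 of them (80%, beside 59.3% over all genes) in both lists. At 1 week only were 5 (10%, beside 20.4%) and at 2 weeks only 5 (10%, beside 20.3%). When only peaks with a log10 FDR of at most -3 were kept, 9 were at 1 week only and 4 at 2 weeks only. Cebpa, a master regulator of hepatocyte metabolism, had folds of 361 and 120 just after the stop codon, and Cebpb, its relative of the acute phase, 402 and 45.7. Foxa2, a pioneer factor, had 224 and 279. Onecut2 had 793 and 260 in its 3′ UTR, and the nuclear receptor Nr0b2, which represses bile acid synthesis, had 133 and 73.8. Higher at 2 weeks were Ahr, the sensor of aryl hydrocarbons (253 and 1120), Creb3l3, a factor of fasting lipid metabolism (7.39 and 46.3), and Usf1 (12.4 and 64.4).

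Hnf4a, the factor that maintains hepatocyte identity, was in the 1-week list only. Its peak lay in the 3′ UTR in exon 10 at chr2:163570062-163570631, 258 nt after the stop codon, with a fold of 54.7 and a log10 p of -139. It had a peak of fold 51.4 at 8 weeks and none at day 1. Its absence from the 2-week list is a missing call and was not tested as a change of m6A. The others of the 1-week list only were Nfia, with 3 peaks and a best log10 p of -199 at fold 13.7, Sox9 (53.1), a marker of bile duct cells, Gata4 (17.4) and Klf10 (10.5). The 5 factors of the 2-week list only included the nuclear receptors Rora, Ppard and Thra. Rora had folds of 153 in the 3′ UTR and 39.2 in exon 5, Ppard had 17.6, and Thra had 2.22 with a log10 p of -1.82. With them were Klf15 (72.0) and Hhex (12.2), a factor of liver budding. Ppara and Thrb, nuclear receptors of fatty acids and thyroid hormone, were in both lists, but the 1-week list lacked a site near the stop codon that the 2-week list held. For Ppara this peak had a fold of 191 at chr15:85801021-85801561, a span also called at 8 weeks with a fold of 108, beside the shared 3′ UTR peak with folds of 17.9 and 17.2. For Thrb it had a fold of 131, while the 1-week peak of fold 14.5 lay 2824 nt after the stop codon.

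The 13 genes chosen for m6A-RIP-qPCR in the study all had a peak at 1 week. Of these, 12 were in both lists and Hnf4a was in the 1-week list only. Since the study picked these genes on its own m6A data, their presence is no independent evidence. Beside the factors named above, Egfr had folds of 182 and 257, Cited2 332 and 340, Foxm1 34.9 and 9.37, Onecut1 50.9 and 18.7, Sirt1 25.4 and 19.9, and Apof 40.7 and 16.3.

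Genes of xenobiotic metabolism stood in the 2-week list far more often than in the 1-week list. Of 110 listed, 52 had a peak, 21 in both lists, 3 at 1 week only and 28 at 2 weeks only, which is 53.8% at 2 weeks only beside 20.3% over all genes. The median fold of the 28 was 14.9, against 11.1 over all genes of the 2-week list only. Aldh1a1, which oxidises retinal, had a fold of 203, and Cyp4a12a, a male-biased fatty acid hydroxylase, 152. Ces3b, a carboxylesterase, had 62.6, the glutathione transferase Gstp1 44.8, and the epoxide hydrolase Ephx1 29.7. Cyp2c29, Cyp2c40 and Ugt2b5 had 24.6, 26.3 and 23.4, and Cyp2e1, which metabolises ethanol, had only 2.51 with a log10 p of -299. Of the 28 genes, 6 also had a peak at day 1, 4 at 8 weeks and 18 in neither, where 47.0% of all genes of the 2-week list only fell. The 3 genes of the 1-week list only were Cyp2r1 (17.4), the vitamin D hydroxylase, Fmo4 (16.7) and Gstt1 (2.27). Among those of both lists, Fmo5 had 26.9 and 26.6 and a further 2-week-only peak of fold 219, Ugt2b36 11.1 and 148, Por, the electron donor of the P450 enzymes, 5.45 and 21.1, and Cyp1a2 45.1 and 35.7. Cyp, Ugt, Ces and Gst genes have close copies, so some peaks may belong to a neighbour, and Ugt1a2 and Ugt1a9, which share their last exons, were given the same peak of fold 12.6.

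**Figure D5:**
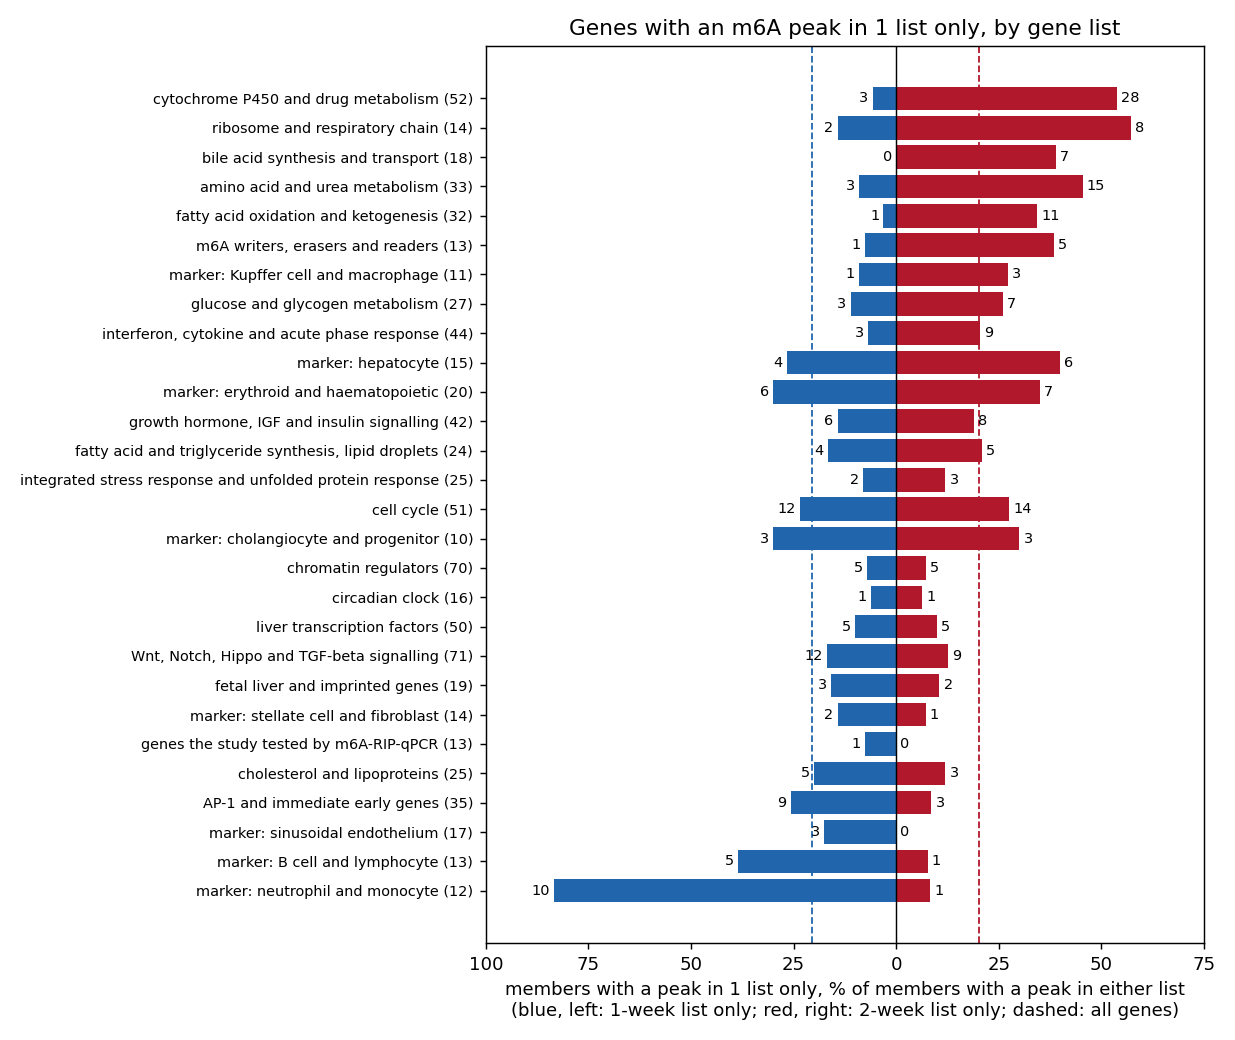
Members with a peak in the 1-week list only (blue, left) or the 2-week list only (red, right), as % of the members with a peak in either list (x axis), for 28 gene lists with that number of members in brackets and counts beside the bars. Dashed lines mark all 6935 genes, 20.4% and 20.3%; cytochrome P450 and drug metabolism reaches 28 of 52 on the right, neutrophil and monocyte markers 10 of 12 on the left.

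Urea and amino acid metabolism leaned the same way, with 33 of 60 listed genes called, 15 in both lists, 3 at 1 week only and 15 at 2 weeks only (45.5%). The 15 had a median fold of 11, and 9 of them were in neither the day 1 nor the 8-week list. Beside Cps1, the urea cycle enzyme Ass1 had a fold of 15.2. Tdo2, which opens the tryptophan ring, had 125, Qdpr, which recycles the cofactor of phenylalanine hydroxylase, 96.6, Hal, which deaminates histidine, 19.3, and Fah, the last enzyme of tyrosine breakdown, 18.3. Enzymes of methyl-group metabolism were called there too, with Mat1a at 3.13, Ahcy at 11.1 and Cbs at 11. In both lists, Nags, which makes the activator of Cps1, had 72.7 and 71.1, and Tat, a tyrosine aminotransferase that appears after birth, 3.61 and 23.6. The same 2-week peak of Tat also overlapped another 1-week peak, of fold 20.4. At 1 week only were Slc25a15 (8.82), the ornithine carrier, Ido2 (11.6) and Got1 (3.06).

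Fatty acid oxidation and ketogenesis had 32 of 53 listed genes called, 20 in both lists, 1 at 1 week only and 11 at 2 weeks only (34.4%). Much of the 2-week group was weakly enriched, with a median fold of 6.44 beside 11.1 over all such genes. It held the mitochondrial enzymes Acadl (1.91), Acadvl (6.44), Hadha (4.39), Acaa2 (4.76) and Decr1 (24.6), and the peroxisomal genes Acaa1b (2.78) and Abcd3 (17.6). Higher folds were those of Lpin1 (81.4), a coactivator and phosphatidate phosphatase, Cyp4a14 (58.5) and Vnn1 (39.8), the last 2 classic targets of Ppara. Acot12 (4.85) was the gene of the 1-week list only. In both lists, Cpt2 had 35.6 and 41.9, Acads 21.9 and 214, and Pdk4, which spares glucose, 122 and 50.4.

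Bile acid synthesis and transport had 18 of 31 listed genes called, 11 in both lists, 7 at 2 weeks only (38.9%) and 0 at 1 week only. The 7 had a median fold of 8.78. They were the enzymes Cyp7b1 (12.3), Cyp27a1 (22.2) and Amacr (5.21), the transporters Abcb11 (4.13), which exports bile salts, Slco1b2 (4.82) and Slc51b (10.5), and the receptor Fgfr4 (8.78). In both lists, Cyp7a1, the rate-limiting enzyme of bile acid synthesis, had 18.8 and 44.5, Cyp8b1, which makes cholic acid, 177 and 23.5, and Nr1h4, the bile acid receptor, 31.0 and 72.6.

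Glucose and lipid synthesis genes were closer to the background. Glucose and glycogen metabolism had 27 of 48 called, with 17 in both, 3 at 1 week only and 7 at 2 weeks only (25.9%). Those at 2 weeks only included Gckr (55.6) and Slc37a4 (42.7), which brings glucose phosphate to G6pc. Those at 1 week only were Foxo1 (18.2), Hk1 (10.9) and Hk3 (8.72), both hexokinases. Fatty acid and triglyceride synthesis had 24 of 45 called, with 15 in both, 4 at 1 week only and 5 at 2 weeks only. The 2-week group, 20.8% of those called, held Scd1, Fasn (10.5), Acly (16.4), Elovl3 (16.4) and Elovl5 (2.08). The 1-week group held Agpat2, Angptl8, Elovl2 (2.48) and Dgat1 (11.6), the last a step of triglyceride assembly. Other enzymes of fatty acid synthesis were in both lists, among them Acaca (49.4 and 65) and Elovl6 (23.3 and 15.8). Cholesterol and lipoprotein genes numbered 25 of 46, with 17 in both, 5 at 1 week only (20%) and 3 at 2 weeks only (12%). In both, Sqle, which oxidises squalene, had 222 and 27.5, Apoa5 144 and 19.1, and Abcg8, a sterol exporter, 30.5 and 92.5.

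Growth hormone, IGF and insulin signalling had 42 of 55 listed genes called, 28 in both lists (66.7%, beside 59.3% over all genes). At 1 week only were 6 (14.3%, beside 20.4%) and at 2 weeks only 8 (19%, beside 20.3%). Beside Ghr and Pik3r1, the 2-week group held Igfbp2 (2.87) and Igfbp4 (2.60), which bind insulin-like growth factors. The 1-week group held Foxo1, Tsc2 (17.4), a brake on mTOR, and Igf2r (2.54), which clears Igf2. Igf1, the main product of growth hormone in liver, had 2.09 and 7.86 at different places. Igfbp3 had 46.9 and 185, Prlr, the prolactin receptor, 211 and 17.7, Insr 232 and 150, and Irs2 541 and 177. Phip, which binds insulin receptor substrates, had a fold of 588 at a 1-week-only site, and its lowest-p peak at 2 weeks had 12.3, over a 1-week peak of 25.4.

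Immediate early genes are switched on within minutes of a stimulus. Of these, 35 of 49 listed had a peak, 23 in both lists, 9 at 1 week only (25.7%, close to the 20.4% over all genes) and 3 at 2 weeks only (8.57%, beside 20.3%). The 9 had a median fold of 26.2, against 12.4 over all genes of the 1-week list only. They included the growth regulator Myc (32.0), Klf4 (26.2), Atf3 (12.4), Ier3 (42.9), Dusp5 (48.7), a phosphatase of MAP kinases, and Gadd45b (56.7), and 6 of the 9 (66.7%) had a peak at day 1, near the 59.8% over all genes of the 1-week list only. At 2 weeks only were Nr4a1 (8.78), Btg1 (14.6) and Cyr61 (13.5). In both lists, Jun had 497 and 444, Junb 345 and 207, Zfp36l2, which destabilises mRNAs, 443 and 435, Dusp1 606 and 48.4, and Gadd45a 391 and 40.4.

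Regulators of chromatin, signalling and stress were largely shared. Of the listed chromatin regulators, 70 had a peak and 31 had none. In both lists were 60 of the 70 (85.7%, beside 59.3% over all genes), with 5 at each age only (7.14%, beside 20.4% and 20.3%). Ep300, an acetyltransferase, had 449 and 180, Crebbp 280 and 182, Kdm6b 257 and 689, Tet3, which oxidises methylated cytosine, 132 and 458, and Kmt2a 380 and 30.7. Wnt, Notch, Hippo and TGF-beta signalling had 71 of 100 called, 50 in both (70.4%). At 1 week only were 12 (16.9%) and at 2 weeks only 9 (12.7%). Among those in both, Lgr4 had 740 and 152, Fzd7 160 and 540, and Inhbe, a secreted factor of hepatocytes, 248 and 742. Of the circadian clock genes, 14 of 16 with a peak were in both lists (87.5%), among them Nr1d2 (214 and 208) and Per2 (47.3 and 82.0). The stress response list had 20 of 25 in both (80%). Its 2-week group held Ppp1r15b (776), which restarts translation, and Atf4 (34.0), and its 1-week group Edem3 (220) and Atf6 (23.8).

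Cell cycle genes were evenly split, with 51 of 106 called, 25 in both lists, 12 at 1 week only (23.5%) and 14 at 2 weeks only (27.5%). The 1-week group held the mitotic genes Aurka (30.5), Kif20a (40.7), Kif14 (32.7) and Espl1 (21.4), and 9 of the 12 (75%) had a peak at day 1, beside 59.8% over all genes of the 1-week list only. The 2-week group held Plk4 (79.6), which starts centriole copying, Cdkn1b (25.8), an inhibitor of cell cycle kinases, Ccnd1 (16.0), Mcm6 (31.6) and Rrm2 (10.5). In both lists, Mki67, the common marker of dividing cells, had 161 and 206, Sgo1 597 and 183, and Cenpf 128 and 89.6.

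Markers of some other cell types in the tissue differed between the lists. Of 27 neutrophil and monocyte markers, 12 had a peak, 10 at 1 week only (83.3%, beside 20.4%), 1 at 2 weeks only and 1 in both. At 1 week only were Spi1 (33.4), the master factor of myeloid cells, Cxcr4 (58.2), Mpo (4.12), Lcn2 (7.37), Mmp8 (9.45), Cebpe (13.8), Itgam (8.72), Ly6c2 (7.27), Ccr2 (10.9) and Csf2rb (10.9). Camp (22.2) was called at 2 weeks only and Ngp in both (1.5 and 8.2), while Elane, Ltf and S100a8 had no peak in either list. Over the 4 ages, 12 of these markers had a peak at day 1, 11 at 1 week, 2 at 2 weeks and 1 at 8 weeks. The 8-week list is the shortest, with 3448 genes, against 6336 at day 1, 5527 at 1 week and 5521 at 2 weeks, so the count at 8 weeks goes with a shorter list. B cell and lymphocyte markers had 13 of 32 called, 7 of them in both lists (53.8%, near the 59.3% over all genes). At 1 week only were 5 (38.5%, beside 20.4% over all genes) and at 2 weeks only 1 (7.69%, beside 20.3%). The 5 were Ebf1 (237) and Pax5 (38.5), which set B cell identity, Cd79b (49.4), Rag2 (21.1) and Il7r (13.1). Lymphocyte genes called in both lists went either way, such as Rag1 (60.3 and 17.6) and Ighm (5.45 and 23.4). These lists count calls and not RNA, and the part of such cells in the differences between the ages was not tested.

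For other cell types the counts at 1 week only and at 2 weeks only lay closer together. The shares over all genes were 59.3% in both lists, 20.4% at 1 week only and 20.3% at 2 weeks only. Erythroid and haematopoietic markers had 20 of 48 called, with 7 in both (35%), fewer than over all genes. At 1 week only were 6 (30%), among them Klf1 (218) and Tal1 (169). At 2 weeks only were 7 (35%), among them Slc25a37 (518), the mitochondrial iron importer. Gypc, a membrane protein of red cells, had 1320 and 126. Sinusoidal endothelium had 14 of 17 in both lists (82.4%), 3 at 1 week only (17.6%) and 0 at 2 weeks only, with Cdh5 at 150 and 578. Stellate cells and fibroblasts had 11 of 14 in both (78.6%), with Lrat, which stores vitamin A, at 85.6 and 60.6, and Pdgfrb at 79.8 and 446. Kupffer cells, the macrophages of the liver, had 7 of 11 in both (63.6%), with Clec4f at 382 and 185. At 1 week only was 1 of their markers (9.09%) and at 2 weeks only were 3 (27.3%). Bile duct and progenitor markers had 4 of 10 in both (40%) and 3 at each age only (30%). Hepatocyte markers, the defining genes of the labelled tissue, had 15 of 27 called, with 5 in both (33.3%), fewer than over all genes. At 1 week only were 4 (26.7%) and at 2 weeks only 6 (40%). Apob had 36.5 and 23.8 and Fga 14.1 and 5.09, whereas Alb, Ttr, Apoh, Asgr1 and Slc10a1 had no peak in either list.

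Interferon, cytokine and acute phase genes had 44 of 75 called, 32 in both lists, 3 at 1 week only and 9 at 2 weeks only (20.5%, beside 20.3% over all genes). Il6ra and Il6st, the subunits of the interleukin 6 receptor, had 379 and 61.2, and 159 and 213. Orm1, an acute phase glycoprotein, was called at 2 weeks only with a fold of 455, and Stat2 with 54.8, and Isg20 at 1 week only with 236. Fetal and imprinted genes had 19 of 38 called, 14 in both (73.7%), 3 at 1 week only (15.8%) and 2 at 2 weeks only (10.5%). Zim1 had 172 and 6.15, Grb10, an imprinted inhibitor of insulin signalling, 21.1 and 182, and Peg10, found at 1 week only, 34.2. Ribosomal and respiratory chain genes, whose mRNAs are short and abundant, had only 14 of 70 called. At 2 weeks only were 8 of them (57.1%, beside 20.3% over all genes), with Sdha at 48.0 and Atp5b at 44.8. All 8 were in neither the day 1 nor the 8-week list, as were 47.0% of all genes of the 2-week list only.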

How the data were processed

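Liver RNA of 2 animals per age, by the methods, was fragmented and sequenced before and after pull-down with an m6A antibody. The submitters' processing notes name HISAT2, HOMER and the mm10 build, with no version used here, and the methods name exomePeak for peak calling with the longest isoform kept per gene. The authors deposited 1 peak list per age. Each deposited fold is the ratio of IP over input that the peak caller gave, with a library scaling that could not be learned from the sources used here. The deposited p-value compares IP with input within an age, and its log10 and that of the FDR are deposited as a score. No read counts were used, so depth is unknown. Whether strand was kept is unclear, since labels and methods name different library kits, so antisense and overlapping genes are uncertain.

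Members, gene lists and tests were chosen with earlier results of these data known. Spans were found to be counted from 0 (99.2% of 384 and 99.4% of 467 block junctions then lay on exon edges, 0% counted from 1) and are printed counted from 1. Cells that the spreadsheet could not show were taken as the lowest log10 p. In each list, 12 gene names turned into dates were restored through Ensembl identifiers in GENCODE M21. Peak positions were set on the longest coding transcript of GENCODE M21, which wholly held 94.9% and 93.7% of the peaks of coding genes at 1 and 2 weeks. Pairs matched 1 to 1 were those in which each peak overlapped only the other.

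Named were all called m6A machinery, liver transcription factor and m6A-RIP-qPCR genes. Named too were, among coding genes, the 10 per list with the lowest p of those in 1 list only, the 8 per list with the lowest p of unshared peaks in genes of both lists, the 8 highest and 8 lowest differences of matched folds with a log10 FDR of at most -3, and the 8 highest matched folds. From every other list, up to 6 members per class with the lowest p were named; further members and some ranked genes left out of the text were chosen after their values were seen. A few genes that these rules name are not reported here. The fold of a gene is that of its peak with the lowest p in that list. Coding peaks of at most 300 bases were planned for printing, but several ranked genes had wider ones, so the middle 120 bases are shown.

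The lists were also compared with peaks limited to a log10 FDR of -3 or lower, with folds limited to 5 or higher, with the longer list cut to the shorter, with coding genes only, with 50% of both spans required, and by exon blocks. Matching on either strand, and gene lists at a fold of at least 5, were added after the data were seen. Scripts used Python 3.11.15, pandas 2.3.3, numpy 2.4.6, pysam 0.24.0 and matplotlib 3.10.9 and were tested on simulated data.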

Additional observations from a re-analysis of the deposited data

How the results depend on the processing

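Of 130 values recomputed for 32 results, 109 were labelled the same, 21 moved and 0 changed direction. The same meant within the error for a share and within 1.5 times for a count. For the median difference of matched pairs it meant a shift smaller than the distance between their quartiles, -1.16 and 0.72. So wide a margin makes that label a weak check. Only the median difference in log2 fold of matched pairs has a sign, so no share or count could change direction. That median had no interval, and its recomputed values lay between -0.239 and -0.159, beside -0.213 in the main setting. With a log10 FDR of at most -3, the share of peaks found in the other list was 64.1% at 1 week and 69% at 2 weeks, GGAC was in 73.5% of 1-week-only and 68.1% of 2-week-only peaks, 55.2% of 1-week-only peaks overlapped a day 1 peak, 9 liver transcription factors were in the 1-week list only, and 0 B cell markers in the 2-week list only. When 50% of both spans had to overlap, the shares found in the other list were 51.0% and 52.8%, those overlapping a day 1 peak 34.8% (1-week only) and 27.6% (2-week only), those with GGAC 67.8% and 65.1%, and 37.6% of 2-week-only peaks were in the 3′ UTR or stop codon class. In coding genes only, that class held 34.5% of shared 1-week, 38.8% of 1-week-only and 42.6% of 2-week-only peaks. With the longer list cut to the shorter, 64.2% of 1-week peaks were found at 2 weeks and 53.6% of 1-week-only peaks at day 1. At a fold of at least 5, chosen after seeing the data, 2 neutrophil and monocyte markers and 0 B cell markers were in the 2-week list only. The cause of these shifts was not tested. No paired analysis was possible because each age had 1 list with no replicates.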

Other observations

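Some gene families outside the lists above were described after their values were seen, beside background shares of 20.4% at 1 week only and 20.3% at 2 weeks only. Solute carriers, the transporters of the Slc families, had 134 genes with a peak, 85 in both lists, 15 at 1 week only (11.2%) and 34 at 2 weeks only (25.4%). At 2 weeks only were Slc1a2 (fold of 37.5), a glutamate transporter, Slc39a1 (35.1), a zinc importer, and the amino acid transporters Slc7a8 (30.4) and Slc38a4 (9.37). At 1 week only were Slc30a1 (234), a zinc exporter, and Slc1a5 (17.4), which carries glutamine. Zinc-finger genes named Zfp had 221 called, 146 in both lists, 49 at 1 week only (22.2%, close to the background) and 26 at 2 weeks only (11.8%). Among them, Zfp617 (48) and Zfp28 (37.8) were called at 1 week only and Zfp420 (67.9) and Zfp72 (24) at 2 weeks only.

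All 4 major urinary protein genes with a peak were in the 2-week list only, with folds of 296 for Mup16, 178 for Mup20, 54.5 for Mup18 and 30.4 for Mup12, but these near-identical copies cannot be told apart with certainty. Of 11 mitochondrial genes with a peak, 7 were in both lists and 4 at 2 weeks only. The ribosomal RNAs mt-Rnr1 and mt-Rnr2 had folds of 572 and 167 there, against 1.76 for mt-Co1 and 1.68 for mt-Co2. Among long noncoding RNAs, Kcnq1ot1, the imprinted antisense transcript, had 12 peaks at 1 week and 13 at 2 weeks, and its strongest peak was shared with folds of 215 and 131. Meg3, another imprinted RNA, had 4 peaks at 1 week and 1 at 2 weeks, the shared one with folds of 29.8 and 15.8. Xist, the RNA that silences an X chromosome, had a fold of 94.5 at 1 week and 7.03 to 11.7 at 2 weeks, at places that did not overlap.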
